A study of Mus musculus with 19 samples.

Results

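The genes of cholesterol and fatty acid synthesis that are controlled by the sterol regulatory element-binding proteins (SREBPs) were followed in Kupffer cells (KCs), the resident mφs of the liver. Of 28 listed genes of this pathway, 27 had a probeset of that gene symbol alone and were measured among 19938 genes, with the probeset of the highest mean taken for each gene. Acat2 had no such probeset in the table used. The genes were listed by their place in the pathway. They fall into 7 mevalonate steps (6 measured), 11 squalene and sterol steps, 3 control genes, 1 transport gene and 6 fatty acid steps.

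RNA of sorted KCs was measured on 19 Affymetrix mouse gene arrays, 1 per sample, from livers of mice 6 to 12 weeks of age on the C57Bl/6 background. The 11 arrays of embryonic KCs (em-KCs) hold 5 conditions. WT mice gave 3 arrays, KC-DTR mice without toxin another 3 and a littermate without toxin 1, and littermates that had received 50 ng of diphtheria toxin (DT) gave 2 at day 15 and 2 at day 30. Monocyte-derived KCs (mo-KCs) were taken from KC-DTR mice given the same dose, which removes the em-KCs and lets monocytes fill the niche, with 3 samples after 15 days and 5 after 30 days. In KC-DTR mice a cassette with an internal ribosome entry site, YFP, a 2A peptide and the human DT receptor sits in the Clec4f gene, so it is expressed where Clec4f is. Every mo-KC sample and the 3 untreated KC-DTR em-KC samples carried this knock-in, and the other 8 em-KC samples did not. Live CD45+ cells were sorted for Clec4F and the mφ protein of the Adgre1 gene at intermediate CD11b, without granulocytes and Ly6C+ cells. Samples of 1 condition are biological replicates per the labels. Values are log2 expression after Robust Multi-array Average, on which 1 unit is a 2-fold step. Levels are compared between samples within a gene, not between genes.

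Markers of KCs were well expressed in every sample. The mean over 11 KC markers was 11.83 to 11.99 on em-KC arrays, 11.23 to 11.40 at day 15 and 11.22 to 11.51 at day 30, while the mean over 7 lymphocyte markers stayed between 5.49 and 6.00 and that over 6 neutrophil markers between 5.22 and 5.78. A set of 6 arrays stood apart from the other 13: all 3 arrays of WT mice and replicates 3 to 5 of day 30 mo-KCs had Y-linked transcripts at 3.95 to 4.52 and Xist at 8.72 to 9.51, against 7.40 to 7.98 and 4.07 to 4.53. The 6 arrays are called low-Y arrays and the 13 high-Y arrays below. The mean over 22 hepatocyte markers was 9.36 to 9.46 on the WT em-KC arrays, 7.70 to 8.59 on the low-Y day 30 arrays and 7.01 to 8.18 on the high-Y arrays. The mean over 12 immediate-early genes was 7.95 to 8.57 on the low-Y arrays and 9.58 to 10.63 on the high-Y arrays. The mean over 12 sinusoidal endothelial markers was 9.65 to 9.90 on the low-Y and 10.31 to 10.41 on the high-Y day 30 arrays, and that over 7 stellate cell and fibroblast markers was 6.23 to 6.44 and 6.03 to 6.06. Both lists overlapped between em-KCs and mo-KCs. The mean over 4 monocyte markers was 6.15 to 6.81 in em-KCs, 7.17 to 7.31 at day 15 and 6.59 to 6.99 at day 30. Of these 4, only Ccr2 was called at day 15, with a difference of 2.90 from em-KCs against a median of 0.22 over the list. Of the 11 KC markers, Timd4 (-3.75) and Marco (-1.55) were called lower at day 15, and Timd4, Clec4f, Marco and Spic at day 30. Xist is transcribed in female cells and Y-linked genes in male cells, the study used males and females, and the labels give neither sex nor array batch. Sex, batch and, for WT em-KCs, the mouse line cannot be told apart, and their part and that of the marker levels in the results below was not tested.

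Cells make cholesterol from acetyl-CoA through mevalonate, isoprenoids, squalene and lanosterol, and fatty acids through malonyl-CoA. The SREBP precursors are held in the endoplasmic reticulum by INSIG proteins while sterols are plentiful. When sterols fall, SREBPs are cut in the Golgi and enter the nucleus, where SREBP2 (Srebf2) mainly drives the sterol genes and SREBP1 (Srebf1) mainly the fatty acid genes. SREBPs bind sterol regulatory elements and E-boxes and act together with NF-Y, which binds CCAAT boxes, and Sp1, which binds GC boxes. In mφs this pathway is balanced against the uptake of lipids by phagocytosis and against sterol efflux.

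Promoters of RefSeq genes (GRCm38.p6), each a window around the gene start, were present for 22 of the 28 genes. They were searched on both strands for TCACNCCAC (a sterol regulatory element), CACGTG (E-box), CCAAT and GGGCGG (GC box). Fdft1, Fdps, Scd1, Scd2, Sqle and Stard4 had no entry. The sterol regulatory element was found in 1 of the 22 genes, Hmgcs1, and in 1.24% of all 32851 promoters. The E-box was found in 4 genes (Dhcr7, Hsd17b7, Insig1 and Sc5d) and in 7.15% of all promoters. The CCAAT box was found in 19 genes against 37.4% of all promoters, and the GC box in 18 genes against 35.7%. The units differ, as genes were counted with a match at any start and the shares are per promoter. Dhcr7, Pmvk and Srebf1 had more than 1 start. The windows below were chosen to show 1 match of each motif, in Hmgcs1 and in 3 genes whose values the results turn on. Each is 30 bases upstream of the start, 5′ to 3′ on the gene's strand, with motif letters in capitals.
Hmgcs1: tcaccgtcTCACCCCACttcccaggtcctc
Sc5d: gcggcgacCACGTGaccgccgcgaccgcgc
Fasn: ctcggtgtCCAATTGGtttcgatgtggagc
Acly: cctaggccCCGCCCacggccCCGCCCacgt
They lie at chr13:119690206-119690235 (+ strand), chr9:42264377-42264406 (- strand), chr11:120824588-120824617 (- strand) and chr11:100528067-100528096 (- strand). The Fasn window holds CCAAT and its reverse complement in overlap, and the Acly window holds 2 GC boxes read on the other strand. A match is a description of the letters and not a bound site.

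Over the 27 genes the pathway mean was 7.32 to 7.59 on the 11 em-KC arrays, 7.37 to 7.53 on the 3 day 15 arrays and 7.21 to 7.47 on the 5 day 30 arrays, so the groups overlapped, with day 30 replicates 3 and 5 below the em-KC range. Single genes varied more: the median SD of a gene over the 19 arrays was 0.25, against 0.19 over all genes, and 12 of the 27 genes spanned 1 log2 unit or more. Scd1, which encodes a stearoyl-CoA desaturase, had the largest SD of the 27 genes (0.39), and Srebf2 the smallest (0.13). The plot of all genes by array shows this variation array by array.

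**Figure D1:**
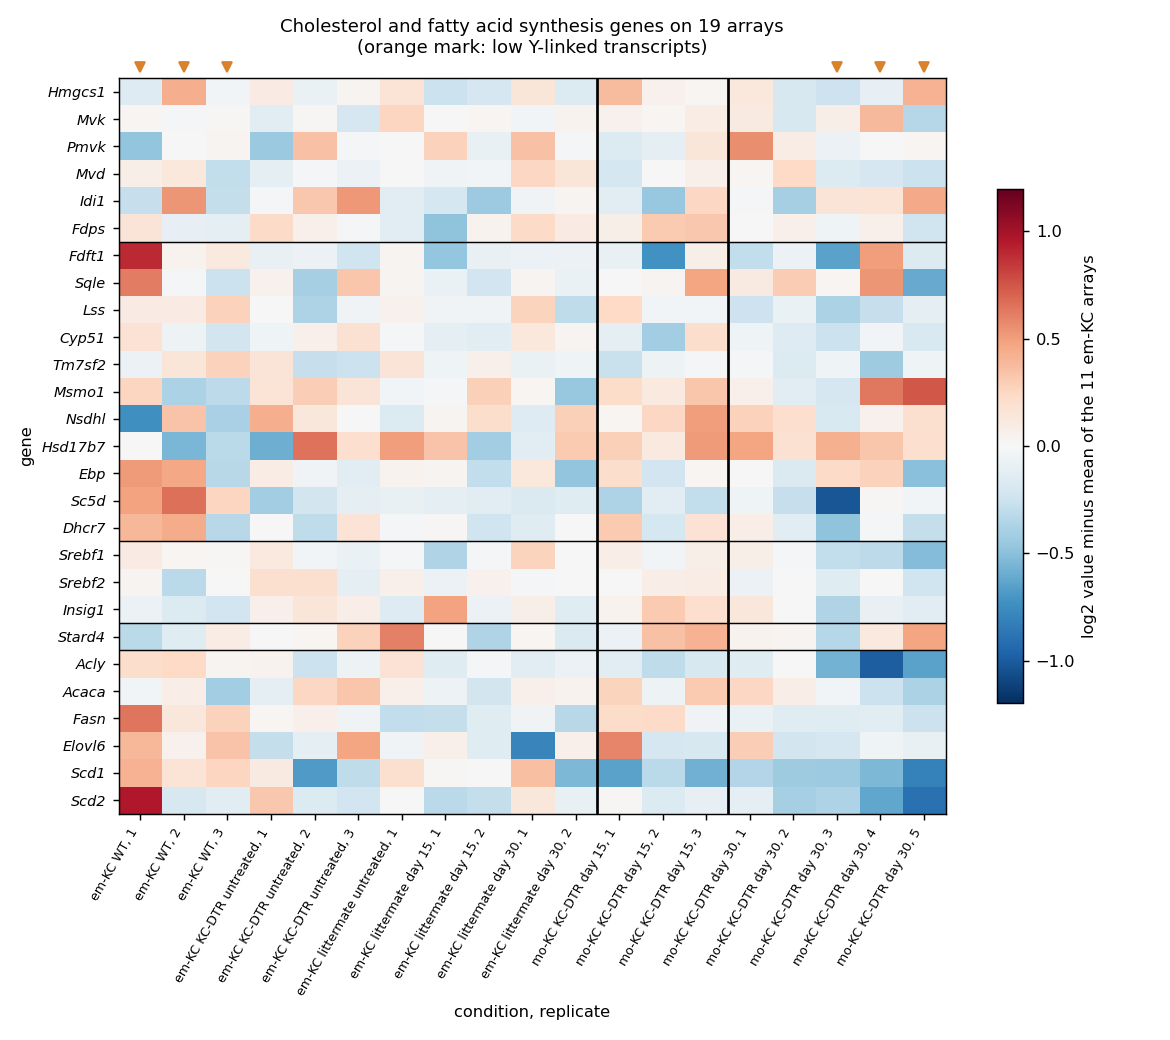
Log2 value of each of the 27 genes (rows, grouped by pathway step) on each of the 19 arrays (columns), as the difference from the mean of the 11 em-KC arrays of that gene. Vertical lines part the em-KC, day 15 and day 30 arrays, orange marks show the 6 low-Y arrays, and Acly is lowest on day 30 mo-KC replicates 3 to 5.

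Day 15 mo-KCs were compared with em-KCs to ask whether cells newly derived from monocytes run lipid synthesis genes at the em-KC level. No gene of the pathway was called (0 of 27, adjusted p under 0.05 from limma, against 0.502% of all genes). At an unadjusted p under 0.05, 1 of 27 passed, against 6.05% of all genes, and the methods' t-test called 0. The median difference over the genes was 0.06 on the log2 scale, and -0.01 over all genes. The 95% confidence interval lay within 1.5-fold for 21 of the 27 genes, as for 87.8% of all genes. In no gene did the day 15 arrays lie wholly above or wholly below the em-KC arrays, a pattern seen for 1.81% of all genes.

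Scd1 introduces the double bond that turns stearate into oleate. Its em-KC arrays ran from 10.02 to 11.12 with a median of 10.81, and the day 15 arrays had 10.06, 10.37 and 10.12. All 3 day 15 arrays were in the lower reach of the em-KC range without leaving it. The difference of -0.51 (SE 0.18) passed only without adjustment (adjusted p = 0.455 from limma). Against the untreated KC-DTR em-KC arrays alone, which carry the same knock-in, it was -0.22 and not called.

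Hsd17b7, a ketoreductase of the sterol demethylation steps, ran from 5.61 to 6.85 in em-KCs with a median of 6.20, and had 6.49, 6.32 and 6.71 at day 15. The difference was 0.30 (SE 0.21, adjusted p = 0.928 from limma), inside a broad em-KC range. Sc5d, the lathosterol desaturase near the end of the pathway, ran from 7.55 to 8.62 in em-KCs with a median of 7.85 and had 7.59, 7.83 and 7.67 at day 15. Its 3 highest em-KC values were those of the WT mice. The difference was -0.27 (SE 0.20, adjusted p = 0.936 from limma). Nsdhl, which removes a carboxyl group in sterol demethylation, ran from 6.77 to 7.94 in em-KCs with a median of 7.54 and had 7.53, 7.76 and 8.01. One day 15 array was the highest of both groups, and the difference was 0.26 (SE 0.18, adjusted p = 0.928 from limma).

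Day 30 mo-KCs, the more mature stage, were also not separated from em-KCs by these genes. No gene was called (0 of 27, against 0.787% of all genes), and the methods' t-test called 0. The smallest adjusted p was 0.0788, for Acly. At an unadjusted p under 0.05, 5 of 27 passed, against 13% of all genes, and all 5 (Acly, Scd1, Scd2, Srebf1 and Lss) were on the lower side, where 6.9% of all genes passed. The median difference was -0.07, and -0.02 over all genes. The interval lay within 1.5-fold for 22 of 27 genes and for 91.1% of all genes. The arrays of no gene were wholly above or below the em-KC arrays, against 0.552% of all genes.

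**Figure D2:**
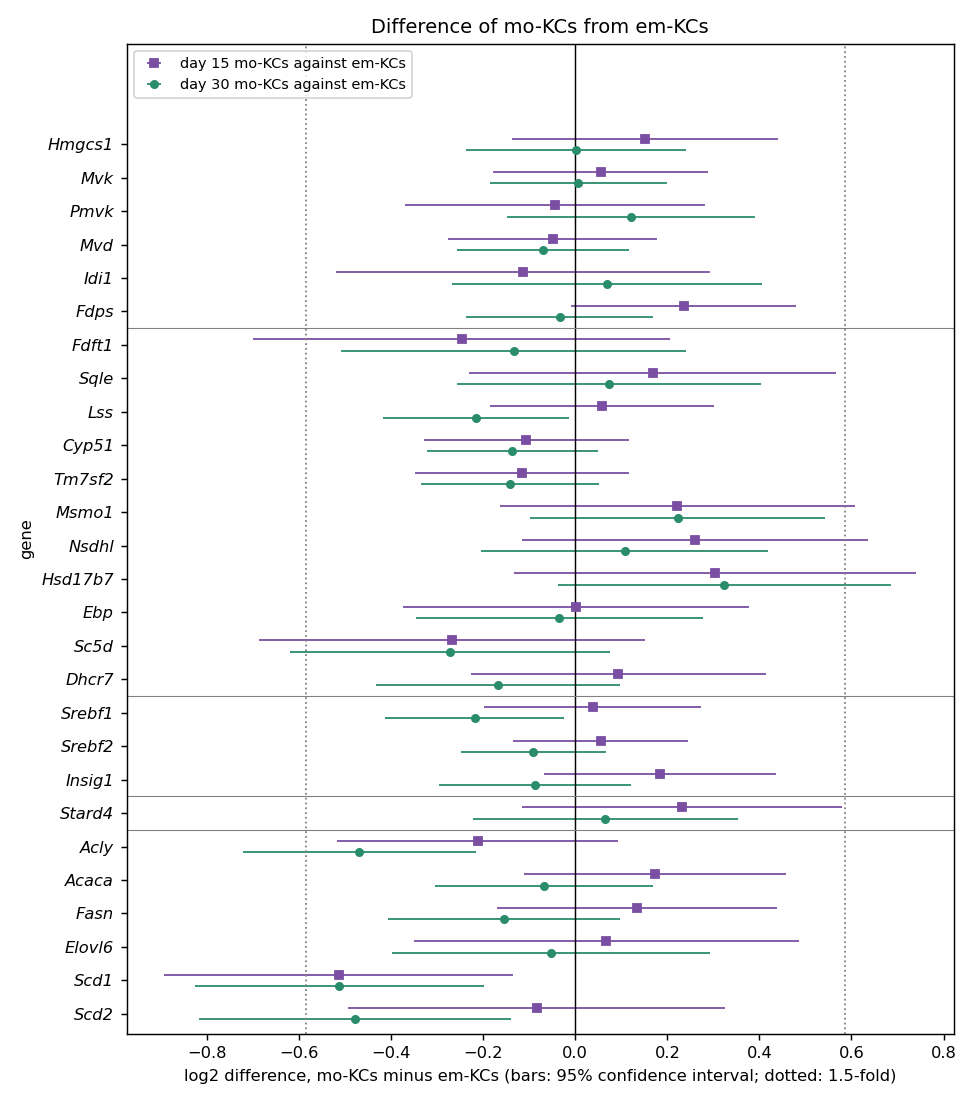
Log2 difference of day 15 mo-KCs (squares, n = 3) and day 30 mo-KCs (circles, n = 5) from em-KCs (n = 11) for the 27 genes in pathway order, with 95% confidence intervals and dotted lines at 1.5-fold. The intervals of Scd1 lie below 0 at both days and those of Acly, Scd2, Srebf1 and Lss at day 30, with no adjusted p under 0.05.

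By pathway step, the median difference at day 30 was -0.31 for the 6 fatty acid steps, of which 0 were called, against 0.00 for the mevalonate steps and -0.13 for the squalene and sterol steps. The mean over the 6 fatty acid genes was 7.98 to 8.58 on em-KC arrays, 8.003 to 8.19 at day 15 and 7.63 to 8.12 at day 30. The 3 lowest of the 19 values were those of the low-Y day 30 arrays (7.85, 7.71 and 7.63), and the high-Y day 30 arrays had 8.12 and 7.96. The 3 highest were those of the WT em-KC arrays (8.58, 8.22 and 8.20), while the other em-KC arrays had 7.98 to 8.17. The mean over the 6 measured mevalonate genes was 6.81 to 7.09 in em-KCs and 6.86 to 7.06 at day 30.

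Acly encodes ATP citrate lyase, which makes the cytosolic acetyl-CoA used by both pathways. Acly ran from 8.91 to 9.40 in em-KCs with a median of 9.15 and had 9.03, 8.86 and 8.97 at day 15. The 5 day 30 arrays had 9.03, 9.16, 8.60, 8.18 and 8.52. Replicates 1 and 2 lay in the em-KC range and replicates 3 to 5 below all other arrays. The difference from em-KCs was -0.47 (SE 0.12, adjusted p = 0.0788 from limma), and it passed when replicate 1 (-0.55, adjusted p = 0.0311) or replicate 2 (-0.59, adjusted p = 0.0135) was left out. Without replicate 3, 4 or 5 the difference was -0.44, -0.34 and -0.43 (adjusted p = 0.244, 0.28 and 0.271), and with replicate numbers as a block it was -0.22 (adjusted p = 0.861 from limma). Replicate numbers 4 and 5 occur only among day 30 mo-KCs, so the block leaves those arrays no part in this last difference.

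Scd1 had 10.34, 10.27, 10.26, 10.16 and 9.89 at day 30. These values were close to those of day 15 and in the lower reach of the em-KC range, with 1 array below it. The difference from em-KCs was -0.51 (SE 0.15, adjusted p = 0.131 from limma), and it passed when untreated KC-DTR em-KC replicate 2, the lowest em-KC array, was left out (-0.58, adjusted p = 0.0419). Against the untreated KC-DTR em-KC arrays alone, which carry the same knock-in, the difference was -0.22 and not called. Scd2, the second stearoyl-CoA desaturase, ran from 8.20 to 9.49 in em-KCs with a median of 8.39 and had 8.54, 8.36 and 8.43 at day 15. At day 30 it had 8.42, 8.13, 8.16, 7.90 and 7.63. Replicates 2 to 5 were below all em-KC arrays, and replicate 1 lay in the em-KC range. The difference was -0.48 (SE 0.16, adjusted p = 0.199 from limma). Scd1 and Scd2 are close relatives, and whether their probes share signal was not examined.

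The other fatty acid genes differed less at day 30. Fasn, the fatty acid synthase, differed by -0.16, Acaca, which makes malonyl-CoA, by -0.07 and Elovl6, which lengthens palmitate, by -0.05, with adjusted p from 0.64 to 0.926 from limma. Of the sterol genes, Hsd17b7 had 6.68, 6.38, 6.63, 6.54 and 6.41 at day 30. All lay above the em-KC median, with a difference of 0.32 (SE 0.17, adjusted p = 0.443 from limma).

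Among the control genes, Srebf1 ran from 7.22 to 7.85 in em-KCs with a median of 7.58 and had 7.65, 7.56, 7.28, 7.27 and 7.06 at day 30. The 3 low-Y day 30 arrays were again the lower ones. Replicate 5 was below all em-KC arrays, and the other two lay above 1 em-KC array, littermate day 15 replicate 1. The difference was -0.22 (SE 0.09, adjusted p = 0.32 from limma). Srebf2 differed by -0.09 (SE 0.08) and Insig1, which retains the SREBP precursors, by -0.09 (SE 0.10). Stard4, a carrier of cholesterol between membranes, differed by 0.07 (SE 0.14). Of the mevalonate genes, Hmgcs1 differed by 0.00 (SE 0.12), Mvk, which phosphorylates mevalonate, by 0.01 (SE 0.09) and Fdps, the farnesyl diphosphate synthase, by -0.03 (SE 0.10).

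From day 15 to day 30 the pathway was tested directly between both mo-KC groups. No gene was called (0 of 27, against 0.0201% of all genes), the methods' t-test called 0, and 1 of 27 passed at an unadjusted p under 0.05, against 5.08% of all genes. The difference was negative for 21 of the 27 genes, with a median of -0.12 against 0.00 over all genes. All 3 day 15 arrays but only 2 of the 5 day 30 arrays are high-Y, and within the high-Y arrays the median was -0.030. Without day 15 replicate 3 it was -0.032. The day 30 arrays lay wholly below the day 15 arrays for 3 of 27 genes (Fasn, Lss and Fdps), against 1.55% of all genes, and wholly above for 0, against 1.65%. The interval lay within 1.5-fold for 20 of 27 genes and for 82.7% of all genes.

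Scd2 had the largest difference between the days, -0.39 (SE 0.22, adjusted p = 0.92 from limma), with its values given above. Fasn had 7.44, 7.44 and 7.17 at day 15 and 7.14, 7.07, 7.07, 7.08 and 6.95 at day 30. The groups were parted by a narrow gap, and the difference was -0.29 (SE 0.16, adjusted p = 0.92 from limma). Lss, which closes the sterol rings to form lanosterol, had 5.78, 5.50 and 5.51 at day 15 and 5.29, 5.46, 5.16, 5.26 and 5.43 at day 30. The difference was -0.27 (SE 0.13, adjusted p = 0.92 from limma). Insig1 had 9.41, 9.68 and 9.56 at day 15 and 9.50, 9.36, 9.01, 9.28 and 9.24 at day 30. One day 30 array lay within the day 15 range, and the difference was -0.27 (SE 0.14, adjusted p = 0.92 from limma).

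The day 30 comparison was then made within each set of arrays, as the low-Y set holds 3 day 30 and 3 WT em-KC arrays and the high-Y set holds 2 day 30 and 8 em-KC arrays. Within the low-Y arrays, 2 of 27 genes were called lower in day 30 mo-KCs, against 1.59% of all genes. Acly was 9.38, 9.40 and 9.20 in WT em-KCs and 8.60, 8.18 and 8.52 in mo-KCs, with a gap of more than the spread of either group, and fell by 0.89 (SE 0.15, adjusted p = 0.017 from limma). Scd1 was 11.12, 10.86 and 10.96 against 10.26, 10.16 and 9.89, likewise apart, and fell by 0.87 (SE 0.14, adjusted p = 0.0168 from limma). The mo-KC arrays lay wholly below the WT em-KC arrays for 8 of 27 genes (Acly, Scd1, Scd2, Fasn, Elovl6, Srebf1, Lss and Sc5d), against 15.7% of all genes, and wholly above for Hsd17b7 alone, against 11.7%. Of the 8, 5 are fatty acid steps. The WT em-KC arrays also had the higher hepatocyte marker mean of this pair of groups (9.36 to 9.46 against 7.70 to 8.59). Day 30 replicates 4 and 5 had hepatocyte means of 8.34 and 8.59, above every high-Y array. Their fatty acid means (7.71 and 7.63) were the lowest of all arrays. Hepatocytes express genes of this pathway but not CD45, on which the cells were gated, and whether hepatocyte RNA moved these values was not tested.

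Within the high-Y arrays, where the hepatocyte marker mean was 7.01 to 7.03 in the 2 day 30 samples and 7.32 to 8.18 in the 8 em-KC samples, 0 of 27 genes were called, against 0.326% of all genes. All 27 overlapped. Acly differed by -0.01 (SE 0.10) and Scd1 by -0.29 (SE 0.21). Fasn differed by 0.02 (SE 0.12) and Sc5d by 0.01 (SE 0.10). The difference between the sets was tested in 1 fit. Only Acly was called among the 27 genes, with a day 30 difference 0.88 lower in the low-Y than in the high-Y arrays (-0.88, SE 0.16, adjusted p = 0.00374 from limma), against 4.72% of all genes. Sc5d (-0.83, SE 0.26, adjusted p = 0.0775), Scd2 (-0.67, SE 0.32, adjusted p = 0.259) and Msmo1, in the other direction (0.63, SE 0.30, adjusted p = 0.26), had the next largest values in that fit. Fasn had -0.56 (SE 0.18, adjusted p = 0.0877). Scd1 (-0.59, SE 0.29, adjusted p = 0.271) was not shown to differ between the sets. This comparison was added after the values of both sets had been seen.

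**Figure D3:**
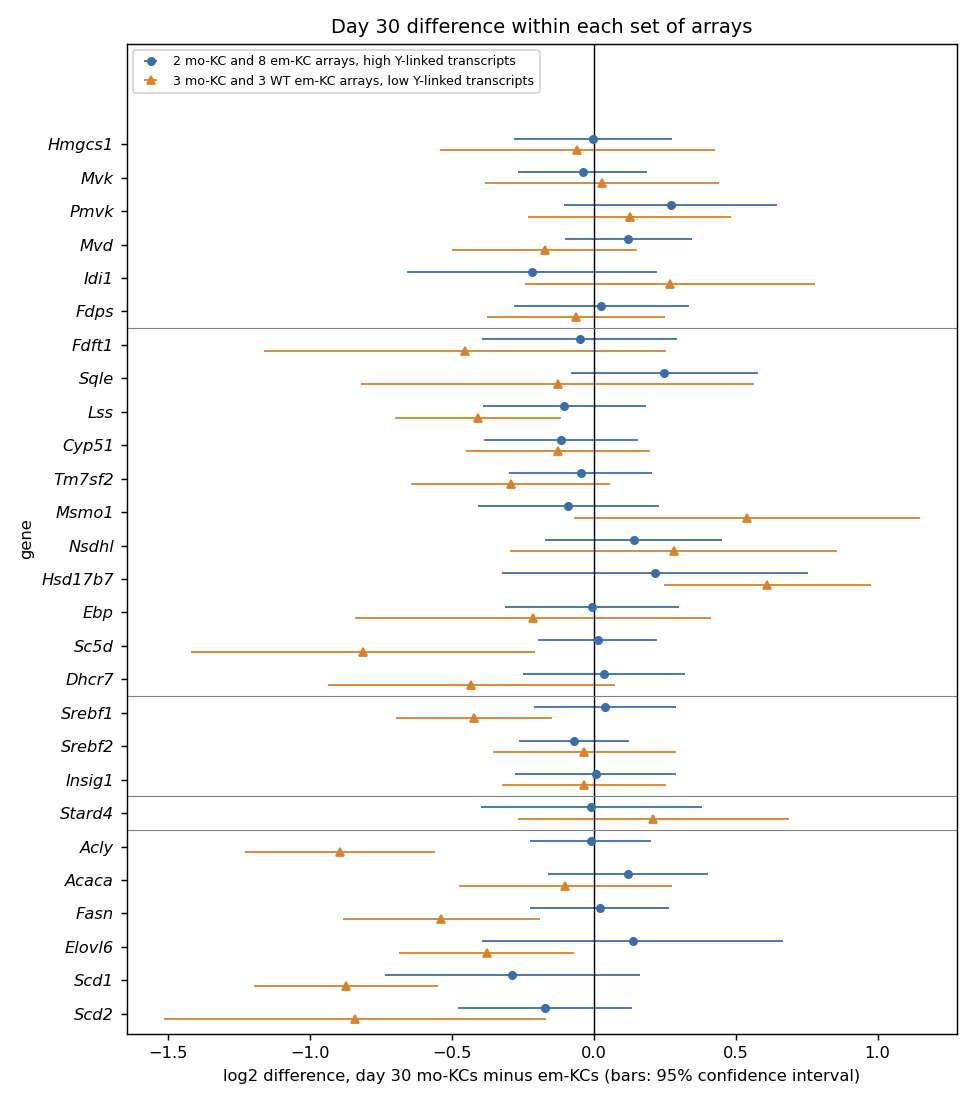
Log2 difference of day 30 mo-KCs from em-KCs within the high-Y arrays (circles, 2 against 8) and within the low-Y arrays (triangles, 3 against 3 WT em-KC arrays), with 95% confidence intervals. Acly is at -0.01 in the high-Y and at -0.89 in the low-Y arrays, and it is the only one of the 27 genes that passed the test of a difference between the sets.

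WT em-KCs were compared with the other 8 em-KC samples, which come from the KC-DTR colony, since the em-KC group pools both. The 8 include 3 samples with the knock-in and littermates given DT (2 at day 15 and 2 at day 30). WT samples had neither, and the part of knock-in and toxin in this comparison was not tested. Here 2 of 27 genes were called higher, against 7.77% of all genes, and 0 lower, against 10.1%. At an unadjusted p under 0.05, 4 of 27 passed, against 32.6% of all genes. Of all genes called, 43.4% were higher in WT em-KCs, and 33.4% when each array was centred on its median. The median difference over the 27 genes was 0.06, and 0.04 over all genes.

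Sc5d was 8.45, 8.62 and 8.22 in WT em-KCs and 7.55 to 7.87 in the colony, with a median of 7.82. All WT arrays were above all colony arrays, and Sc5d was higher by 0.64 (SE 0.17, adjusted p = 0.0134 from limma). Fasn was 7.86, 7.36 and 7.49 against 6.88 to 7.28 with a median of 7.12. It was likewise higher on every WT array, by 0.49 (SE 0.11, adjusted p = 0.00433 from limma). Without WT replicate 2, Sc5d was no longer called (0.55, adjusted p = 0.0745). With the array set as a block, which rests on the day 30 arrays to set the level of the set, neither was called (Sc5d 0.83, adjusted p = 0.119, and Fasn 0.56, adjusted p = 0.0954 from limma). This blocked difference is the difference between the sets given above with its sign reversed, so it is not a separate result.

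Fdft1, which makes squalene, was 8.84, 7.98 and 8.06 in WT em-KCs and 7.48 to 7.97 in the colony, with a median of 7.86. The WT arrays were above by a narrow gap, with replicate 1 far above the other two, and the difference was 0.48 (SE 0.21, adjusted p = 0.125 from limma). At day 15 Fdft1 had 7.85, 7.22 and 8.01, and at day 30 7.64, 7.87, 7.30, 8.44 and 7.78. Hsd17b7 was 6.20, 5.65 and 5.88 in WT em-KCs and 5.61 to 6.85 in the colony, with a median of 6.46. The groups overlapped, and the difference was -0.40 (SE 0.21, adjusted p = 0.191 from limma). Wholly higher WT arrays were found for 3 of 27 genes (Sc5d, Fasn and Fdft1), against 8.43% of all genes, and wholly lower ones for 0, against 9.28%. Of the 22 hepatocyte markers, 21 were called higher in WT em-KCs in the same fit, with a median difference of 1.74. A bulk array does not tell more cells of a type from more RNA per cell.

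**Figure D4:**
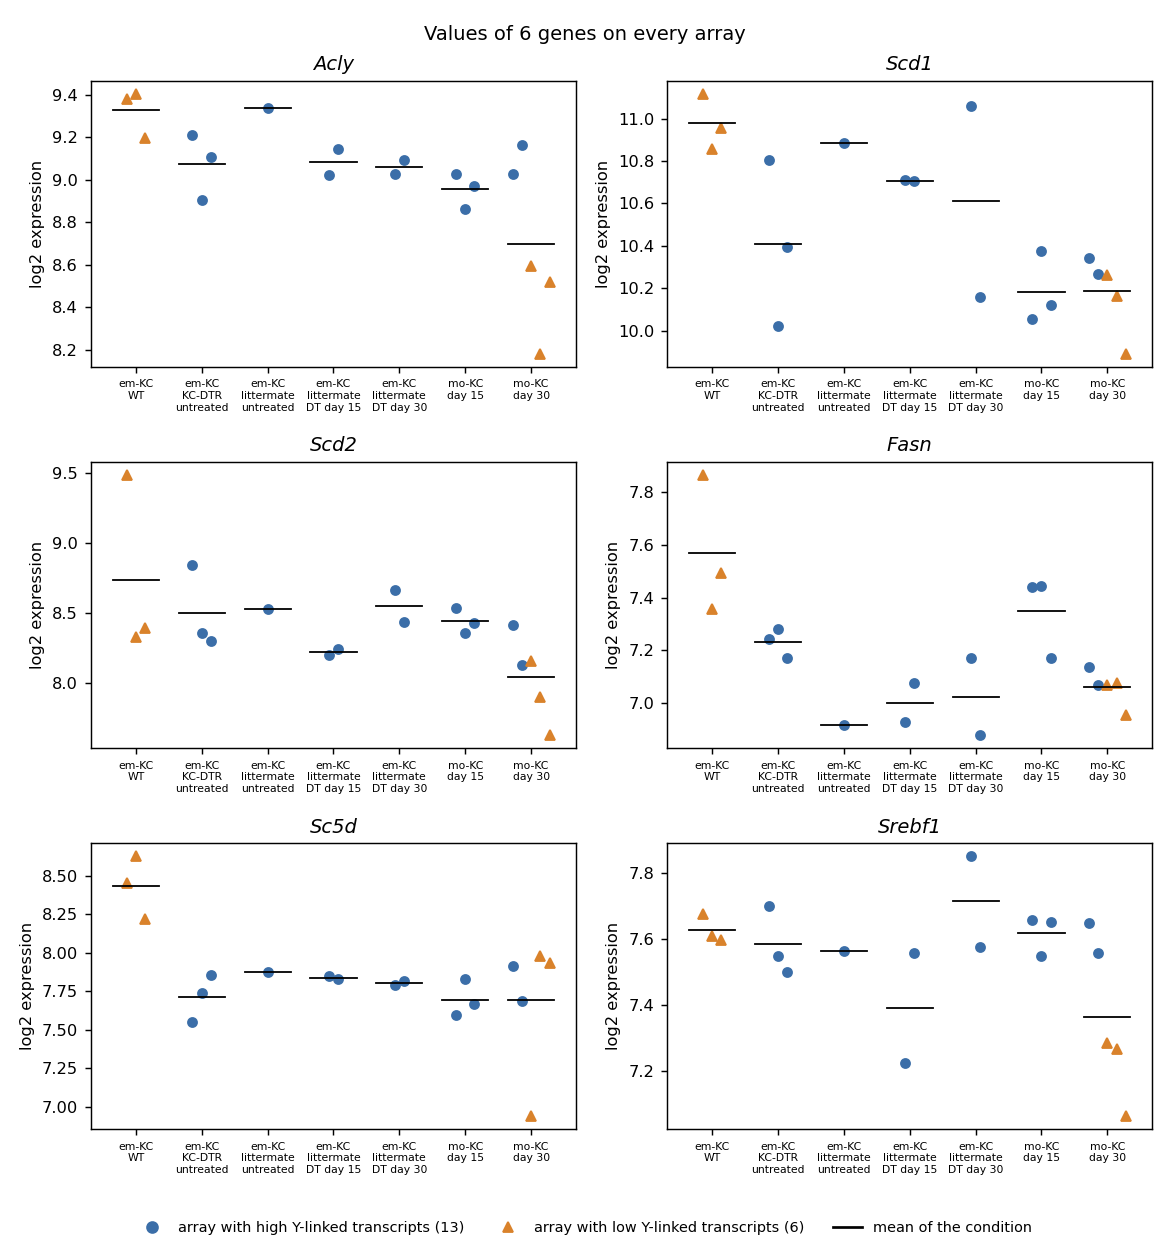
Log2 expression of 6 genes on every array by condition, with 1 point per array and a line at the mean of the condition. The mean of WT em-KCs is the highest for Sc5d and Fasn, and the 3 low-Y day 30 arrays (triangles) are lowest for Acly.

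Untreated KC-DTR em-KCs and littermate em-KCs were compared to see whether the knock-in, which all mo-KCs carry, came with a difference of its own. Of the 5 littermate samples 4 had received DT and of the 3 KC-DTR samples none, so knock-in and toxin cannot be told apart here. No gene was called (0 of 27, against 0% of all genes), the methods' t-test called 0, and 0 of 27 passed at an unadjusted p under 0.05, against 3.86% of all genes. The interval lay within 1.5-fold for 23 of 27 genes. The KC-DTR arrays lay wholly above the littermate arrays for Fasn (7.24, 7.28 and 7.17 against 6.93, 7.08, 7.17, 6.88 and 6.92), a pattern of 1.91% of all genes, and wholly below for 0 genes, against 3.57%. The Fasn gap was smaller than the second decimal and the difference was 0.24 (SE 0.11, adjusted p = 1 from limma).

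Idi1, the isopentenyl diphosphate isomerase, was 6.55, 6.90 and 7.09 in KC-DTR em-KCs and 6.43, 6.35, 6.13, 6.53 and 6.60 in littermates, with 1 KC-DTR array within the littermate range. The difference was 0.44 (SE 0.21, adjusted p = 1 from limma). Idi1 had 6.44, 6.11 and 6.81 at day 15 and 6.54, 6.17, 6.72, 6.74 and 7.02 at day 30, across the em-KC range. Scd1 was 10.81, 10.02 and 10.39 in KC-DTR em-KCs and 10.89, 10.71, 10.71, 11.06 and 10.16 in littermates. The 2 lower KC-DTR values lay in the range of mo-KCs or near it, and the difference was -0.30 (SE 0.18, adjusted p = 1 from limma). Msmo1, the sterol methyl oxidase, was 7.87, 8.0 and 7.86 in KC-DTR em-KCs and 7.67, 7.69, 8.0, 7.73 and 7.25 in littermates, with a difference of 0.24 (SE 0.21, adjusted p = 1 from limma). Msmo1 had 7.92, 7.82 and 8.03 at day 15 and 7.77, 7.57, 7.51, 8.34 and 8.45 at day 30, where replicates 4 and 5 were above all other arrays.

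The remaining genes overlapped between em-KCs and mo-KCs at both days. Pmvk, Mvd, Sqle, Cyp51, Tm7sf2, Ebp and Dhcr7 are enzymes that run from phosphomevalonate to cholesterol, and their day 30 differences were between -0.17 (Dhcr7) and 0.12 (Pmvk). The genes Fdft1, Idi1 and Acaca had a second, dimmer probeset. For Acaca its mean was 5.93 in the em-KC class, 6.33 at day 15 and 6.00 at day 30, beside 7.30, 7.47 and 7.23 for the probeset used. For Fdft1 it was 6.18, 6.28 and 5.89, beside 7.94, 7.69 and 7.81, so the 2 probesets differed in direction at day 15. For Idi1 it was 5.89, 5.78 and 6.11, beside 6.57, 6.45 and 6.64.

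**Figure D5:**
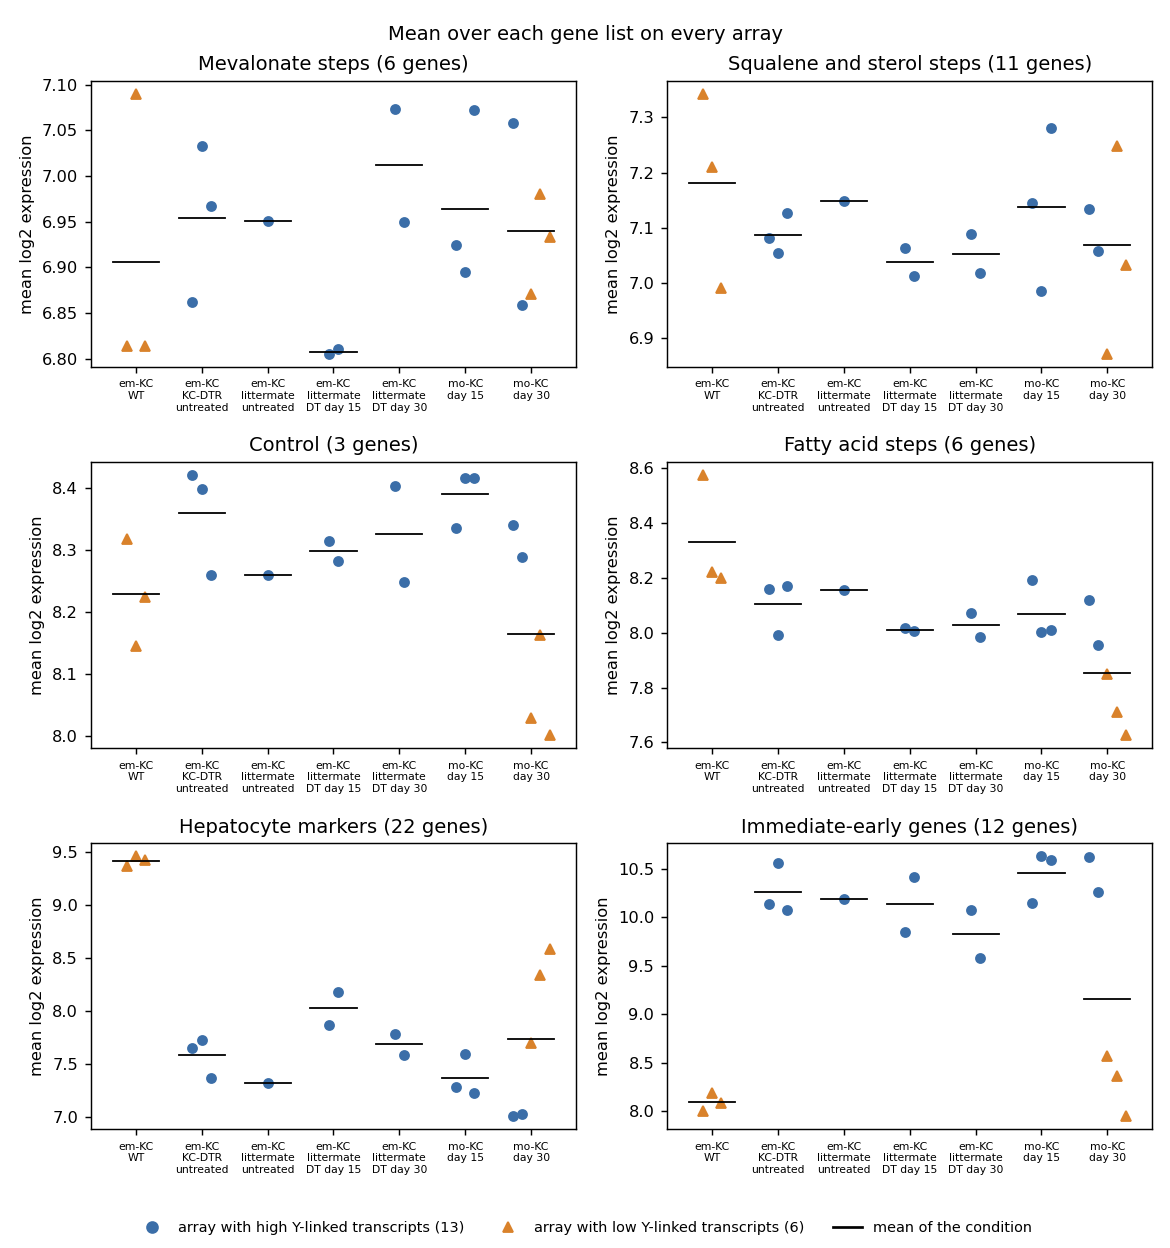
Mean log2 expression of 4 groups of the pathway and of 2 marker lists on every array by condition, with a line at the mean of the condition. The fatty acid mean is lowest on the 3 low-Y day 30 arrays and highest on the 3 WT em-KC arrays. The hepatocyte mean is highest on the WT em-KC arrays, and on low-Y day 30 replicates 4 and 5 (8.34 and 8.59) it is also above every high-Y array. A link between the 2 lists was not tested.

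Genes around the pathway gave few calls in mo-KCs, where 0.502% of all genes were called at day 15 and 0.787% at day 30. Of 18 measured genes of SREBP control and sterol sensing, 0 were called at either day. Of 23 further enzymes of sterol and lipid synthesis, 0 were called at day 15 and 1 at day 30, Lpcat3, which puts polyunsaturated fatty acids into phospholipids and lay at 8.14 ± 0.27 (SD, n = 5) against 8.58 ± 0.08 (SD, n = 11), a fall of 0.44 on the log2 scale (-0.44, SE 0.09, adjusted p = 0.0274 from limma). Of 10 genes of sterol export and breakdown, 0 were called at either day, with median differences of -0.15 and -0.19. In WT em-KCs against the colony more were called: 3 higher and 1 lower of the 18, 9 higher and 2 lower of the 23, and 2 higher of the 10, where 7.77% of all genes were called higher and 10.1% lower. These held Mlxipl, a glucose-responsive activator of fatty acid synthesis (1.31, SE 0.17), Mbtps1, the protease that first cuts SREBPs (-0.49, SE 0.11), Fads2, a fatty acid desaturase (1.16, SE 0.12), and Cyp7a1, the rate-limiting enzyme of bile acid synthesis (1.83, SE 0.14), each with an adjusted p of at most 0.00421 from limma. Cyp7a1 is a gene of hepatocytes, and the hepatocyte marker values of these arrays are given above. Whether hepatocyte RNA moved the values of Mlxipl, Fads2 or the other genes called here was not tested.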

How the data were processed

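The authors deposited log2 expression values per probeset for 19 arrays, made by Robust Multi-array Average (named in the submitters' processing notes) including background correction and then quantile normalization. Software versions: not given in the sources used here. On this scale values ran from 1.71 to 14.38. Of 35556 probesets, 21789 had 1 gene symbol, 1621 had several and 12146 none in the gene table, and the last 2 kinds were left out, which leaves 19938 genes with the highest-mean probeset each. The 3 classes were fitted together with limma 3.58.1 (lmFit, eBayes) in R 4.3.3, two-sided, calling genes at a Benjamini-Hochberg adjusted p under 0.05 over the 19938 genes. The 7 conditions were fitted for comparisons within em-KCs. Tables and plots were made in Python 3.11.15. The pathway and its 28 genes, the lists of related genes and of markers, and the tests were chosen with earlier results of these data known. Full values are given for genes that were called or among the 4 largest differences of a comparison. Other genes given with values, such as Srebf1, were named after their values were seen. The fit was checked on data with known changes before use. The number of arrays limits the precision. Alternatives covered the em-KC arrays, the array set, the probeset, a filter on dim genes, centring, the methods' t-test, the variance model, a block of replicate numbers, the threshold and leaving out each array. A comparison of the Scd1 and Scd2 proteins was planned and is not reported here.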

Additional observations from a re-analysis of the deposited data

Results flagged for a closer look

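Of the 27 genes, 2 had 1 array among the 5 day 30 mo-KC arrays far from the rest by Dixon's test, which flags about 1 in 20 groups by chance. Sc5d was 6.94 on replicate 3, where the other 4 had 7.69 to 7.98. Pmvk, the phosphomevalonate kinase, was 7.31 on replicate 1, where the other 4 had 6.68 to 6.85. The day 30 difference of Acly was not the same in both array sets: it was lower in the low-Y arrays by 0.88 on the log2 scale (-0.88, adjusted p = 0.00374 from limma), while the arrays of both sets differed in the Y-linked, hepatocyte and immediate-early levels and in the kind of em-KC sample, and may differ in sex, and the part of these was not tested.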

How the results depend on the processing

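Of the 27 genes, the number called at day 15 (0), between the days (0) and in KC-DTR against littermate em-KCs (0) was the same under every alternative run. At day 30 it was 0 except at an adjusted p under 0.10 (1, Acly), within the low-Y arrays (2, Acly and Scd1) and over leaving out each array (0 to 1, with day 30 replicates 1 and 2 and untreated KC-DTR replicate 2 giving 1). In WT em-KCs it was 2, or 2 to 3 without 1 array, and 1 (Acly) with the array set as a block, where the median difference over the 27 genes was 0.22. That blocked contrast is the difference between the array sets with its sign reversed, not a separate result. For the difference between the array sets the number called was 1, 3 at an adjusted p under 0.10 and 1 to 2 without 1 array (2 without day 30 replicate 3, 4 or 5 or WT replicate 2). The median over the genes was -0.27 to -0.13 without 1 array against -0.22 in full. Between the days the median was -0.030 within the high-Y arrays and -0.16 to -0.032 without 1 array (the latter without day 15 replicate 3), against -0.12. None of the 24 differences followed changed direction in 519 repeats, 11 gained and 3 lost their call. The 24 were picked in these same data as the 4 largest differences of each comparison. Many repeats use all or nearly all of the same arrays, so a kept direction was likely from the start. Counts over all genes varied more: 44 to 231 at day 15 (100 as reported), 27 to 827 at day 30 (157), 0 to 8 between the days (4), 740 to 5209 in WT em-KCs (3571) and 296 to 1609 between the sets (942). Over 36 pairs of arrays of one replicate number the correlation of deviations was -0.12 to 0.15 (median 0.0175), and 5 were over 0.1. Over 96 pairs of different numbers it was -0.16 to 0.14 (median -0.005), and 3 were over 0.1. The correlations were low, but whether the numbers pair the samples was not settled by them. With the replicate block Acly differed by -0.22 at day 30 (adjusted p = 0.861 from limma), 49 genes were called in place of 157, and no call among the 27 genes changed. As replicates 4 and 5 exist only at day 30, the block takes these arrays out of the day 30 differences. The causes were not tested. The number of arrays limits what can be detected, and Lss and Elovl6, with means under 6, had no value under the filter on dim genes.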
